A study of Mus musculus with 12 samples.

Results

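Collagens are the main structural proteins of connective tissue, and the transcripts of the collagen gene family were followed in mouse embryonic fibroblasts (MEFs, connective tissue cells grown from embryos). The family was taken as all genes whose symbol on the array has the form Col, a type number, the letter a and a chain number, which gave 41 genes. A gene was kept if 2 or more of the 12 arrays detected a probe of it (detection p below 0.01), and was represented by its brightest such probe. This left 26 collagen genes of the 10142 genes that passed among 19057 annotated ones. All 11 fibrillar genes passed, 3 of 6 basement membrane genes and 12 of 24 genes of other classes. Col4a3, Col4a4 and Col4a6 of the basement membrane class did not pass. Of the other classes Col6a4, Col6a5, Col6a6, Col9a1, Col10a1, Col13a1, Col17a1, Col19a1, Col22a1, Col23a1, Col25a1 and Col28a1 did not. Col6a3, Col12a1 and Col20a1 were not analysed here.

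A collagen molecule is a triple helix of alpha chains, each of which is hydroxylated and folded in the endoplasmic reticulum before it is secreted, trimmed by proteinases and crosslinked by lysyl oxidases. Fibrillar collagens (types I, II, III, V, XI, XXIV and XXVII) build or regulate banded fibrils, and fibroblasts are the main source of types I, III and V. Type IV forms the sheet-like network of basement membranes. The other classes include beaded filaments (type VI), anchoring fibrils (type VII), short-chain networks (type VIII), fibril-associated collagens (types IX, XIV and XVI) and multiplexins (types XV and XVIII), which carry heparan or chondroitin sulphate chains.

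The cells had a mixed C57BL6/129Sv background and came from E13.5 embryos grown in DMEM with 10% serum. The 4 genotypes were wild type (WT), a Trex1 -/- knockout (TKO), a Sting -/- knockout (SKO) and the double knockout of both genes (STKO). TREX1 is an exonuclease that degrades cytosolic DNA, and STING is the adaptor that passes the cytosolic DNA signal on to type I interferon and other inflammatory genes. Cells of each genotype received the vehicle DMSO, or 20 µg/ml of DMBA (7,12-dimethylbenz[a]anthracene, a carcinogenic polycyclic aromatic hydrocarbon) for 24 h or 48 h. There was 1 bead array per genotype and treatment, so a single value has no replicate, a treatment difference is a mean over n = 4 genotypes, and a genotype difference a mean over n = 3 treatments. The sources used here do not say how long the DMSO cultures were kept, and the effects of DMBA and of culture time cannot be told apart. Nor do the labels say whether arrays came from separate embryos or cultures, and p-values therefore reflect only the spread between these arrays, which may be technical.

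Between 15662 and 16824 probes were detected per array. Sting1 read 7.80 to 8.12 on the 6 arrays with STING and 5.06 to 6.01 on the 6 without. Trex1 read 8.12 to 9.46 on the 6 arrays with Trex1 and 6.22 to 7.19 on the others, so both targeted genes separated the genotypes. Of 12 fibroblast markers 11 were detected on every array. The culture also held macrophage transcripts, detected for 10 of 12 markers, and their summed background-corrected signal was 3008 to 5530 in TKO against 12809 to 33976 in the other genotypes. Of other cell type markers, 5 of 7 epithelial, 3 of 7 endothelial, 3 of 8 skeletal muscle, 2 of 5 Schwann and neural, 2 of 8 cartilage and 1 of 6 bone markers passed the filter. Krt8, Egfl7, Acta1, Tnnc1, Des, Nes and Sox9 were detected on all 12 arrays, while Epcam, Krt5, Pecam1, Cdh5, Myod1 and Myog did not pass. The Y-linked Eif2s3y was detected on the 3 WT arrays (9.20 to 9.62) and on none of the others (4.39 to 4.52). The X-linked Xist was detected on all 12 arrays, at 10.01 to 10.92 in WT and 9.37 to 11.35 in the others, so WT held both transcripts. The sex make-up of the cultures and genotype cannot be told apart in any difference from WT.

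Levels below are background-corrected, quantile-normalized signals on a log2 scale, given in the order WT, TKO, SKO, STKO. They compare arrays for 1 probe and not 1 gene with another. Differences are log2 differences ± limma's standard error, and a call means an adjusted p (Benjamini-Hochberg, over the 18389 probes tested) below 0.05. An "at least" fold marks a gene not well above background in 1 group, and sets the bright group's mean against the detection floor of the dim group's arrays.

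The windows of 250 bases before the annotated start are shown for 4 members whose DMBA difference depended on STING status: the 3 with the largest such differences (Col8a2, Col7a1 and Col24a1) and Col1a2, which encodes the alpha 2 chain of type I collagen. They are RefSeq sequences of GRCm38.p6, all on the plus strand: chr4:126286544-126286793 for Col8a2, chr3:145292222-145292471 for Col24a1, chr6:4505368-4505617 for Col1a2 and chr9:108953336-108953585 for Col7a1. Capitals mark the letters of a CCAAT box (CCAAT) or a GC box (GGGCGG) on either strand, and the last pair of GC boxes of Col8a2 overlap.
Col8a2: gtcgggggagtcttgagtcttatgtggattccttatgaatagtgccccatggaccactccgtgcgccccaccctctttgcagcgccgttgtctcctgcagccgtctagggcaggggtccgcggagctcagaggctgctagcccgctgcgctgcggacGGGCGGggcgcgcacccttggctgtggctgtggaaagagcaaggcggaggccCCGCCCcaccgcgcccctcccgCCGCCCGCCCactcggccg
Col24a1: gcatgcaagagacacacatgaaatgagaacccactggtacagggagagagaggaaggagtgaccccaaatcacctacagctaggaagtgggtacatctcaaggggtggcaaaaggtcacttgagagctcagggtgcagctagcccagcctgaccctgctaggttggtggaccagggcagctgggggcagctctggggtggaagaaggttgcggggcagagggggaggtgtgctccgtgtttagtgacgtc
Col1a2: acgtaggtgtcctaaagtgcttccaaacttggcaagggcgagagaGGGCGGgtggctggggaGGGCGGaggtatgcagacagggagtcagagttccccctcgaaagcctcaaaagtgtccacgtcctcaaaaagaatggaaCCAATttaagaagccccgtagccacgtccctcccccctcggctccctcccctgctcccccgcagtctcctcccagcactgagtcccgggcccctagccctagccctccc
Col7a1: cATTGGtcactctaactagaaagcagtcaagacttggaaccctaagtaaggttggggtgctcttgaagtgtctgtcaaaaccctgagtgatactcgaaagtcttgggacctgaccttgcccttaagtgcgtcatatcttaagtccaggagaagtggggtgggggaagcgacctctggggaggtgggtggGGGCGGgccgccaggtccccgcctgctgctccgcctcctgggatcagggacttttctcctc
Col8a2 held 4 GC boxes, Col1a2 held 2 GC boxes and a CCAAT box 109 bases before the start, Col7a1 held 1 of each, and Col24a1 held neither. Of the 26 members 20 had a window in the table. GC boxes were in 15 of these 20 and in 32.7% of all 32851 windows, and CCAAT boxes in 9 of 20 and 33.8%. The TATA box letters TATAAA were in 2 of 20 (Col3a1 and Col11a2) and 12.4%. The core letters bound by the aryl hydrocarbon receptor, GCGTG, were in 6 of 20 (Col4a1, Col4a2, Col5a3, Col6a2, Col11a2 and Col16a1) and 28.2%, and in none of the 4 windows shown. Members were counted with 1 window each, while the shares of all windows were not reduced to 1 window per gene. The 2 sets are therefore not alike, and a match is a description of these letters only.

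Most collagen transcripts that changed were lower after DMBA. At 24 h 9 of the 26 members fell and 1 rose, that is 10 called where 15.6% of all probes were (6.8% higher and 8.84% lower). At 48 h 13 fell and 5 rose, where 39.6% of all probes were called (19.1% higher and 20.4% lower). The median difference at 48 h was -1.03 over the 11 fibrillar genes, -0.41 over the 3 basement membrane genes and -0.21 over the 12 others, beside -0.01 over all probes. The medians at 24 h were -0.78, -0.38 and -0.34, beside 0.02. A member that passed the filter only through the group where it was high had to differ: Col11a1 and Col14a1 were detected only under DMSO, Col26a1, the 1 rise at 24 h, only at 24 h, and Col9a2, among the 5 rises at 48 h, only at 48 h. The class medians include these members, and the fibrillar median at 48 h is the value of Col11a1 itself. Of the 15 members detected on all 12 arrays, 5 fell and 0 rose at 24 h, and 7 fell and 3 rose at 48 h. The medians over these 15, not split by class, were -0.56 at 24 h and -0.64 at 48 h. At 24 h the number of calls turned on which genotypes were in the fit: 1 member was called without WT, 2 without TKO, 2 without STKO and 16 without SKO. At 48 h it was 12 to 18, and 11 of the 18 calls were made whichever genotype was left out. Col11a1 was among these 11, and the detection filter was not redone in these fits.

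**Figure D1:**
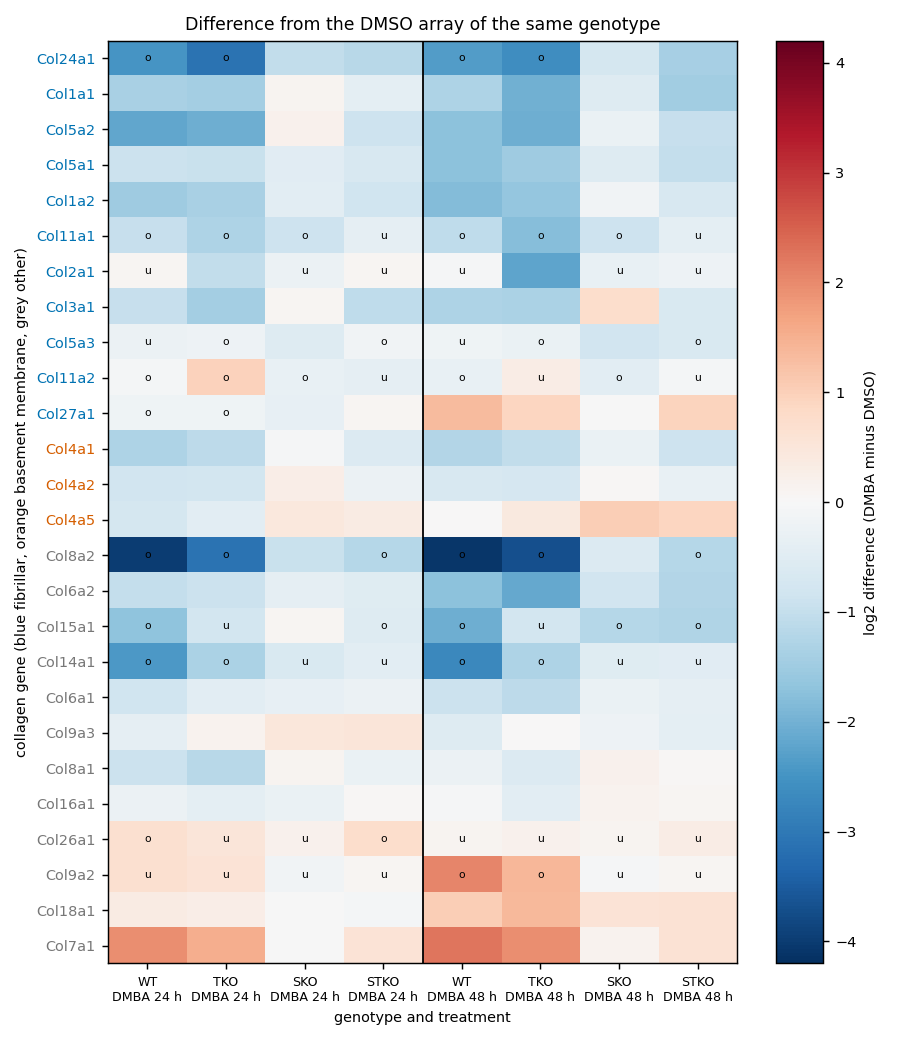
Log2 difference of each DMBA array from the DMSO array of the same genotype, for the 26 collagen genes (rows, by class) and the 4 genotypes at 24 h (left) and 48 h (right). The letter o marks a cell with 1 of its arrays not detected and u one with both not detected. Blue cells prevail in WT and TKO, are paler in SKO and STKO, and Col7a1 and Col18a1 are the reddest rows detected on every array.

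Col5a1 encodes the main chain of type V collagen, which nucleates fibrils, and had the smallest adjusted p among the fibrillar genes. It read 14.00, 13.85, 14.30 and 14.22 under DMSO, 13.09, 12.93, 13.82 and 13.54 at 24 h, and 12.29, 12.35, 13.75 and 13.21 at 48 h. The 4 arrays at 48 h were all below the 4 DMSO arrays, with WT and TKO the lowest. It fell by 0.75 ± 0.17 at 24 h (adjusted p = 0.0183) and fell by 1.19 ± 0.17 at 48 h (adjusted p = 0.000627). Its partner chain Col5a2 read 10.12, 10.19, 9.79 and 9.64 under DMSO, 7.95, 8.16, 9.96 and 8.78 at 24 h, and 8.42, 8.15, 9.50 and 8.67 at 48 h. All but SKO were lower at 24 h, and the differences were -1.23 ± 0.33 (adjusted p = 0.0338) and -1.25 ± 0.33 (adjusted p = 0.0132). Another probe agreed in size (-1.23 and -1.24), while a dim probe of Col5a2 read -0.70 at 24 h and -0.40, not called, at 48 h. The third chain, Col5a3, was dim and was detected on 3 of 4 DMSO arrays and 1 of 4 at 48 h. It read 5.47, 5.66, 6.50 and 5.87 under DMSO and 5.27, 5.40, 5.70 and 5.23 at 48 h, a difference of -0.47 ± 0.13 (adjusted p = 0.0149).

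The genes of the type I heterotrimer, the chief collagen of skin, tendon and bone, were both lower at 48 h. Col1a1 (alpha 1 chain) read 13.52, 13.14, 13.46 and 13.21 under DMSO, 12.17, 11.71, 13.56 and 12.80 at 24 h, and 12.23, 11.12, 12.91 and 11.75 at 48 h. The 48 h arrays did not overlap with the DMSO arrays, and SKO was the genotype that was not lower at 24 h. The differences were -0.78 ± 0.26 at 24 h, not called (adjusted p = 0.0654), and -1.33 ± 0.26 at 48 h (adjusted p = 0.00289). Col1a2 read 10.97, 12.12, 10.88 and 12.57 under DMSO, 9.48, 10.76, 10.45 and 11.75 at 24 h, and 9.15, 10.50, 10.74 and 11.89 at 48 h. It was lower in every genotype, and fell by 1.02 ± 0.24 (adjusted p = 0.0206) and fell by 1.06 ± 0.24 (adjusted p = 0.00629). The ranges of the treatments overlapped, with the genotypes apart already under DMSO.

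Col3a1, whose product forms homotrimers in distensible tissue, was not called with its brightest probe. It read 12.34, 11.59, 11.44 and 11.32 under DMSO, 11.37, 10.14, 11.54 and 10.26 at 24 h, and 11.03, 10.26, 12.16 and 10.68 at 48 h. WT, TKO and STKO were lower after DMBA and SKO was higher, and the differences were -0.84 ± 0.29 (adjusted p = 0.0778) and -0.64 ± 0.29 (adjusted p = 0.11). Another, dimmer probe of Col3a1 was called lower at both times, at -1.07 and -1.34, so the 2 probes disagreed in their calls.

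Minor fibrillar genes split between a fall and a rise. Col24a1 read 7.16, 8.07, 7.17 and 7.45 under DMSO, 4.67, 4.96, 6.13 and 6.29 at 24 h, and 4.81, 5.46, 6.44 and 6.05 at 48 h. It was no longer detected on the DMBA arrays of WT and TKO, and it fell by 1.95 ± 0.32 (adjusted p = 0.00543) and fell by 1.77 ± 0.32 (adjusted p = 0.00222). It was the 1 member called at 24 h whichever genotype was left out. Col11a1, a chain of the type XI collagen of cartilage fibrils, read 5.71, 6.48, 5.89 and 5.30 under DMSO and 4.65 to 5.18 on the 8 DMBA arrays, none of which detected it. Its differences were -0.88 ± 0.18 and -1.03 ± 0.18, and it was at least 1.02-fold lower at 24 h and at least 1.11-fold lower at 48 h. Col27a1 read 5.74, 5.86, 6.33 and 5.83 under DMSO, 5.54, 5.68, 6.01 and 5.92 at 24 h, and 7.08, 6.77, 6.33 and 6.77 at 48 h. WT, TKO and STKO were higher at 48 h and SKO was not, for a rise of 0.80 ± 0.20 (adjusted p = 0.00985) that another probe did not show (0.25, not called). Col11a2 read 4.94 to 5.91 over the 12 arrays, was detected on 3, and was called in no comparison.

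**Figure D2:**
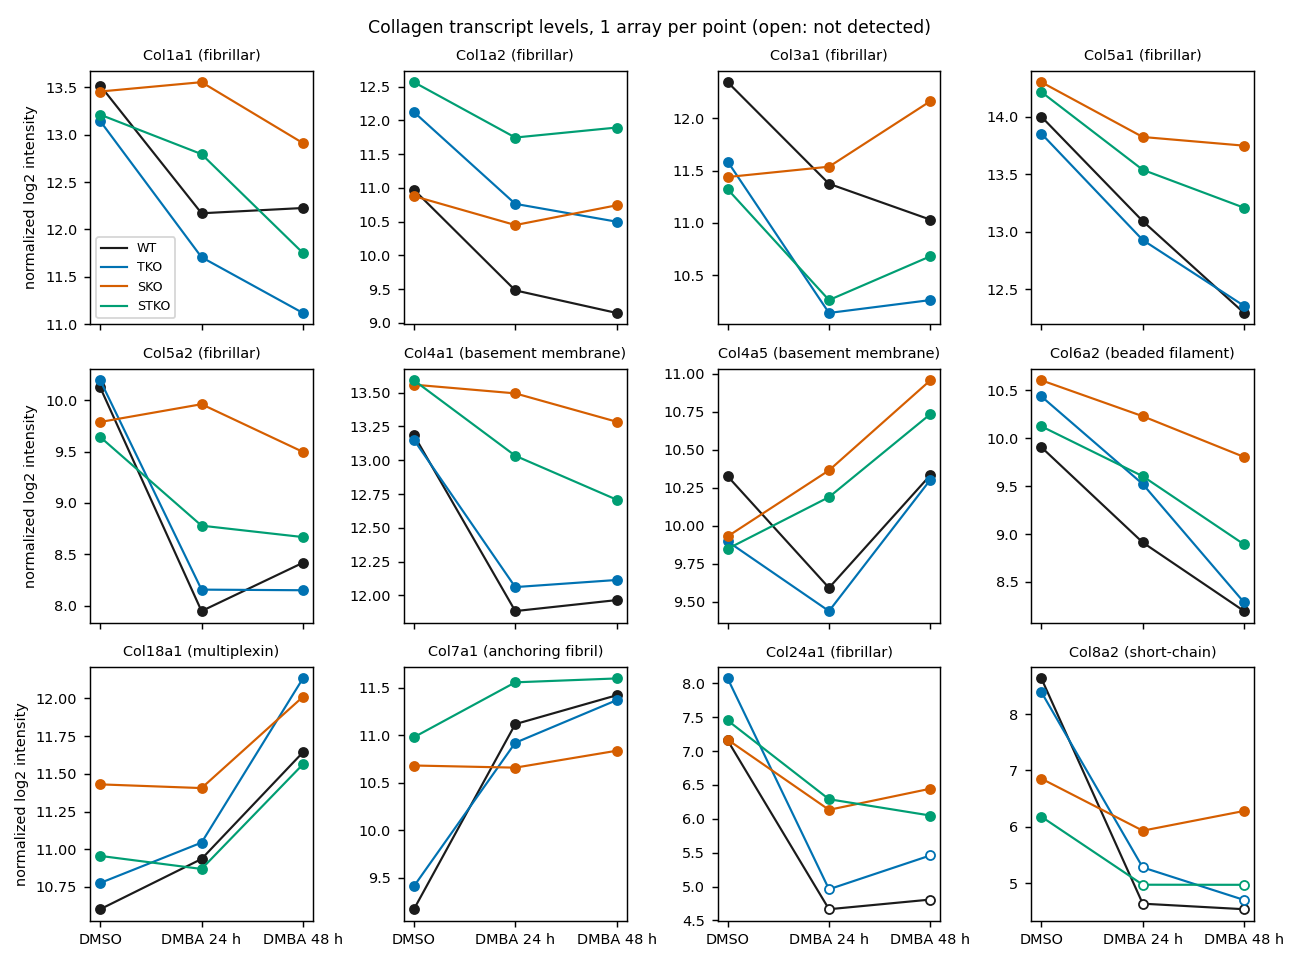
Normalized log2 intensity (vertical axis, a separate scale per panel) of 12 collagen genes under DMSO and after DMBA for 24 h and 48 h (horizontal axis), with 1 point per array and 1 line per genotype. Open points were not detected. Col1a1, Col5a1 and Col6a2 are lower on all 4 arrays at 48 h than on any DMSO array, and Col18a1 is higher.

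In the basement membrane class the genes moved in different directions. Col4a1, one of the chains of the type IV network found in nearly all basement membranes, read 13.19, 13.15, 13.56 and 13.59 under DMSO, 11.88, 12.06, 13.49 and 13.03 at 24 h, and 11.97, 12.11, 13.29 and 12.71 at 48 h. Every genotype was lower at both times, WT and TKO by the most and SKO by the least, for differences of -0.75 ± 0.18 (adjusted p = 0.0245) and -0.85 ± 0.18 (adjusted p = 0.00514). Its partner chain Col4a2, which lies head to head with Col4a1 on chromosome 8, read 11.86, 11.98, 12.23 and 12.28 under DMSO, 11.06, 11.23, 12.53 and 12.03 at 24 h, and 11.19, 11.26, 12.28 and 11.98 at 48 h. WT, TKO and STKO were lower and SKO was not, and the differences (-0.38 ± 0.17 and -0.41 ± 0.17) were not called. Col4a5 is an X-linked gene whose chain belongs to the networks of kidney glomerulus and smooth muscle. It read 10.33, 9.90, 9.93 and 9.85 under DMSO, 9.59, 9.44, 10.36 and 10.19 at 24 h, and 10.33, 10.30, 10.96 and 10.73 at 48 h. It rose by 0.58 ± 0.19 at 48 h (adjusted p = 0.0353) and by 0.69 ± 0.19 from 24 h to 48 h (adjusted p = 0.0495). Another probe was not called at 48 h (0.39) but was called from 24 h to 48 h (0.66).

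Among the other classes, the type VI genes fell. Col6a2 and Col6a1, neighbours on chromosome 10, encode chains of the beaded filaments that surround cells. Col6a2 read 9.91, 10.44, 10.61 and 10.13 under DMSO, 8.91, 9.52, 10.23 and 9.60 at 24 h, and 8.20, 8.29, 9.81 and 8.89 at 48 h. It was lower in every genotype at 24 h and lower again at 48 h. The difference was -0.70 ± 0.19 at 24 h (adjusted p = 0.0337) and -1.47 ± 0.19 at 48 h (adjusted p = 0.00038), the smallest adjusted p of the 26 members at that time. Col6a1 read 12.95, 12.99, 13.41 and 12.92 under DMSO, 12.11, 12.54, 13.07 and 12.68 at 24 h, and 12.06, 11.91, 13.12 and 12.54 at 48 h. It was lower in every genotype, with differences of -0.47 ± 0.15 at 24 h, not called, and -0.66 ± 0.15 at 48 h (adjusted p = 0.00745).

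Col8a2 had the most negative DMBA difference of the 26 members at both times. It encodes a short-chain collagen of the membrane under the corneal endothelium, and read 8.63, 8.39, 6.85 and 6.18 under DMSO, 4.63, 5.28, 5.93 and 4.97 at 24 h, and 4.53, 4.70, 6.28 and 4.97 at 48 h. After DMBA it was detected in SKO alone, and the differences were -2.31 ± 0.53 (adjusted p = 0.02) and -2.39 ± 0.53 (adjusted p = 0.00613). Its partner Col8a1 read 10.69, 11.36, 11.18 and 11.18 under DMSO, 9.79, 10.20, 11.30 and 10.89 at 24 h, and 10.45, 10.78, 11.37 and 11.24 at 48 h. SKO was not lower, and neither difference was called (-0.56 ± 0.18 and -0.14 ± 0.18).

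The multiplexins went opposite ways at 48 h. Col18a1, whose C-terminal part is the angiogenesis inhibitor endostatin, read 10.60, 10.78, 11.43 and 10.96 under DMSO, 10.93, 11.04, 11.41 and 10.87 at 24 h, and 11.64, 12.13, 12.01 and 11.56 at 48 h. The 48 h arrays were all above the DMSO arrays, a rise of 0.90 ± 0.14 (adjusted p = 0.000967) of which 0.77 ± 0.14 came after 24 h. Col15a1 read 7.06, 5.49, 6.20 and 5.89 under DMSO, 5.38, 4.72, 6.28 and 5.34 at 24 h, and 5.01, 4.71, 5.01 and 4.62 at 48 h, when no array detected it. The difference was -1.32 ± 0.25 (adjusted p = 0.00273), at least 1.39-fold lower.

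Col7a1, the collagen of the anchoring fibrils that tie the skin's basement membrane to the dermis, rose. It read 9.17, 9.41, 10.68 and 10.98 under DMSO, 11.12, 10.92, 10.66 and 11.56 at 24 h, and 11.42, 11.37, 10.84 and 11.60 at 48 h. WT and TKO had the largest increases and SKO the smallest, for differences of 1.00 ± 0.32, not called (adjusted p = 0.059), and 1.25 ± 0.32 (adjusted p = 0.0119). Without WT or without TKO the 48 h call of Col7a1 was lost, with a lowest value of 0.91.

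Of the fibril-associated genes, Col16a1 read 11.81 to 12.32 on the 12 arrays and was called in no comparison. Col14a1 read 7.23, 5.97, 5.40 and 4.89 under DMSO, was detected there in WT and TKO only, and read 4.42 to 4.89 on the 8 DMBA arrays. Its differences were -1.20 ± 0.32 and -1.24 ± 0.32, or at least 1.04-fold and 1.13-fold lower. Col9a2 read 4.52 to 5.19 under DMSO and 6.57, 6.60, 4.95 and 4.91 at 48 h, where it was detected in WT and TKO. The difference at 48 h was 0.87 ± 0.30 (at least 1.07-fold higher), which was called but had to be high, since Col9a2 passed the filter through these 2 arrays alone. The call was lost without WT or without TKO. Col9a3 read 8.89, 7.52, 7.67 and 7.75 under DMSO, 8.51, 7.66, 8.14 and 8.26 at 24 h, and 8.33, 7.54, 7.47 and 7.34 at 48 h, and was not called for DMBA. Col26a1 was not grouped with the fibril-associated genes. It read 5.11 to 5.38 under DMSO and 5.89, 5.64, 5.55 and 6.10 at 24 h, a difference of 0.53 ± 0.11 (at least 1.10-fold higher), and 5.30 to 5.67 at 48 h. Col26a1 passed the filter through 2 arrays at 24 h alone, so its call at 24 h is no support for a rise.

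Between 24 h and 48 h 4 members were called, where 10.4% of all probes were (5.23% higher and 5.21% lower): Col4a5, Col18a1 and Col27a1 (0.95 ± 0.20) rose and Col6a2 fell (-0.77 ± 0.19). Without WT or without STKO 0 of these were called, without TKO 1 and without SKO 3. Other probes of Col27a1 (0.19) and Col6a2 (-0.69) were not called between 24 h and 48 h. Across the 26 members, the Spearman correlation of gene length with the DMBA difference was -0.23 at 24 h and -0.03 at 48 h, beside -0.35 and -0.24 over 10129 genes. The genes share arrays, and the part of gene length in these differences was not tested. Cell type markers moved with DMBA too, beside 15.6% of all probes called at 24 h and 39.6% at 48 h. Of 10 macrophage markers 6 fell at 24 h, and 7 fell and 2 rose at 48 h. Of the 11 fibroblast markers 4 fell at 24 h, and 6 fell and 1 rose at 48 h. The cartilage marker Matn4 rose from 4.74 to 10.69 in WT between DMSO and 48 h (mean difference 4.27 ± 0.67), and the bone marker Bglap from 4.50 to 7.60 (1.78 ± 0.61). Bglap passed the filter through DMBA arrays alone, so it had to be higher there. In SKO Bglap was not detected under any treatment (4.40 under DMSO and 4.67 at 48 h). The neural marker Nes, Krt19, Cdh1 and Tnnc1 also rose at 48 h, and Sox9, Emcn and Acta1 fell. Cdh1 passed the filter through 48 h arrays alone and Emcn through DMSO arrays alone, so their calls had to go this way. In bulk RNA a lower share of collagen-making cells and less RNA per cell cannot be told apart, and the part of the cell mix was not tested.

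Whether the DMBA response of the collagens depended on STING was tested as the mean DMBA minus DMSO difference in WT and TKO minus that in SKO and STKO. Of the 26 members 8 were called, where 6.1% of all probes were (2.91% higher and 3.19% lower). Fibrillar and type VIII genes and Col4a5 were among the 6 with a negative interaction (a larger fall, or no rise, with STING), and Col7a1 and Col9a2 had a larger rise with STING. The class medians were -0.65 for the fibrillar genes, -0.72 for the basement membrane genes and -0.40 for the others, beside 0.00 over all probes. The fibrillar median is the value of Col11a1, which was detected only under DMSO. The median of the others includes Col14a1 and Col9a2, which passed the filter through arrays of WT and TKO alone. The class medians are therefore no support by themselves. Of the 15 members detected on all arrays 4 were called with a negative and 1 with a positive value, and their median was -0.71. Cell type markers moved in this comparison as well: the fibroblast markers Pdgfra (-1.48 ± 0.25) and Fap (-0.96 ± 0.21) and the macrophage markers Adgre1 (-0.82 ± 0.17) and C1qc (-0.85 ± 0.18) were called lower, and Bglap (2.75 ± 0.34) and Nes (1.06 ± 0.23) higher. Their part in the collagen values was not tested. Bglap was detected only on DMBA arrays, those of WT and TKO and the 48 h array of STKO, so its call is no support. The median difference from DMSO at 48 h over the 11 fibrillar genes was -1.29 in WT and -1.62 in TKO, against -0.44 in SKO and -0.64 in STKO.

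Averaged over 24 h and 48 h, Col8a2 differed from DMSO by -4.05 in WT and -3.40 in TKO, and by -0.75 in SKO and -1.21 in STKO. The interaction was -2.75 ± 0.27 (adjusted p = 0.0125). Under DMSO the Col8a2 level was already higher with STING (8.63 and 8.39) than without (6.85 and 6.18), and the DMBA arrays of WT and TKO were at background, so the size of the fall is limited by the floor. For Col24a1 the values were -2.42 (WT), -2.86 (TKO), -0.88 (SKO) and -1.28 (STKO), an interaction of -1.56 ± 0.24 (adjusted p = 0.0202). For Col24a1 the DMSO levels of the STING groups overlapped.

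Col1a2 and Col5a2 followed the same pattern at levels detected on all arrays. Col1a2 differed from DMSO by -1.66 in WT and -1.49 in TKO, against -0.28 in SKO and -0.75 in STKO (interaction -1.06 ± 0.18, adjusted p = 0.0236). Col5a2 differed by -1.94 and -2.04, against -0.06 and -0.92 (interaction -1.50 ± 0.28, adjusted p = 0.0298). Another Col5a2 probe was called in the interaction (-1.44), and a dim one was not (-0.69). Among the cells without STING, the DMBA difference was more negative in STKO than in SKO for both genes, which was not tested. Col8a1 had an interaction of -0.74 ± 0.17 (adjusted p = 0.0475), which its other probe did not show (-0.46, not called). Col4a5 was at -0.36 in WT and -0.03 in TKO and at 0.73 in SKO and 0.61 in STKO (interaction -0.87 ± 0.16, adjusted p = 0.0273), and its other probe was not called (-0.49).

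Col7a1 differed from DMSO by 2.10 in WT and 1.73 in TKO, and by 0.07 in SKO and 0.60 in STKO. The interaction was 1.59 ± 0.21 (adjusted p = 0.0145). The groups differed under DMSO, where Col7a1 read 9.17 and 9.41 with STING and 10.68 and 10.98 without, and overlapped after DMBA. Col9a2 differed by 1.37 and 0.98 with STING and by -0.10 and 0.08 without (interaction 1.19 ± 0.20). It was detected only at 48 h in WT and TKO and passed the filter through those arrays, so its call is no support.

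Col1a1 (-0.95 ± 0.29, adjusted p = 0.0903), Col4a1 (-0.72 ± 0.20, adjusted p = 0.0673), Col4a2 (-0.68 ± 0.17, adjusted p = 0.0575), Col5a1 (-0.58 ± 0.17, adjusted p = 0.0794) and Col14a1 (-1.42 ± 0.34, adjusted p = 0.0513) were not called. The brightest Col3a1 probe was not called either (-1.04 ± 0.36, adjusted p = 0.117), while its other probe was (-0.89). For Col6a1 the brightest probe was not called (-0.51) and another was (-0.65). The interaction count was sensitive to single genotypes: it was 1 without WT, 2 without TKO, 0 without SKO and 6 without STKO, and 0 without either DMBA time. For Col8a2 the value was -3.07 to -2.42 over these fits, and the call was lost without SKO, without 24 h and without 48 h.

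**Figure D3:**
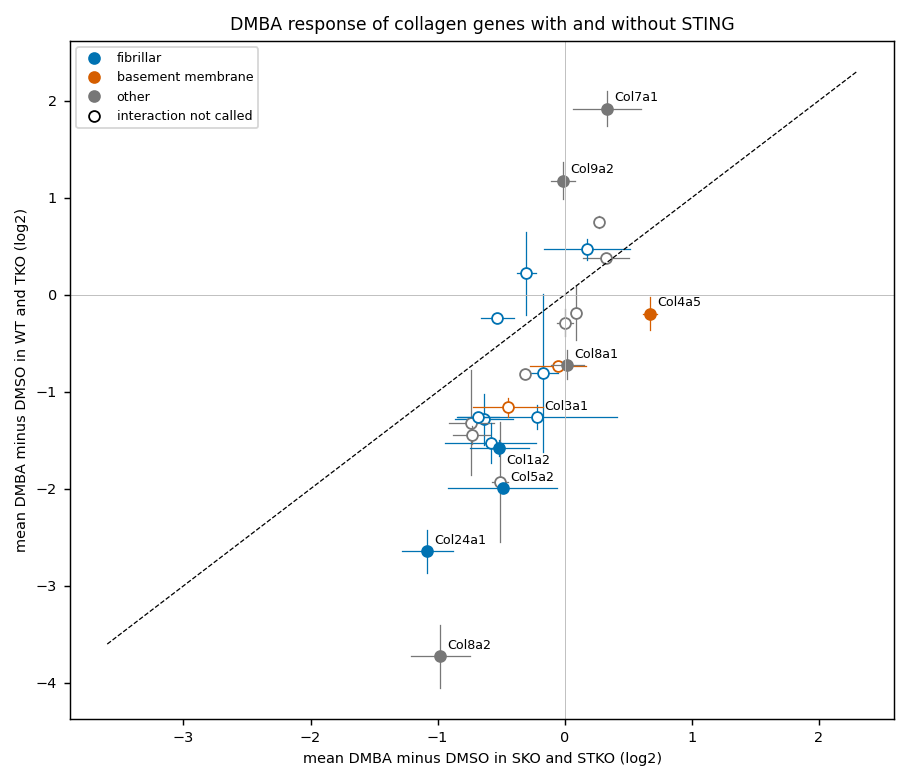
Mean DMBA minus DMSO difference (log2, over 24 h and 48 h) of the 26 collagen genes in WT and TKO (vertical axis) against SKO and STKO (horizontal axis). Thin lines span the pair of genotypes, filled points were called in the interaction test, and the dashed line marks equal responses. Col8a2, Col24a1, Col5a2 and Col1a2 lie below the line and Col7a1 and Col9a2 above it.

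The same test for Trex1 called 0 members and 0 of all 18389 probes by limma. At an unadjusted p under 0.05 it had 0 of the 26 members and 290 of all probes. Member values were -0.68 to 0.75, with standard errors such as 0.47 for Col1a2 (0.15) and 0.50 for Col3a1 (0.75), against 0.18 for Col1a2 and 0.36 for Col3a1 in the STING fit. The Trex1 fit has no term for a STING-dependent DMBA response, which therefore adds to its residual spread, and its lack of calls does not show that responses were alike.

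Averaged over treatments, few collagens were called between Trex1-deficient cells and WT. TKO minus WT called 3 members, where 5.21% of all probes were. Col1a2 was higher in TKO by 1.26 ± 0.28 (adjusted p = 0.026), and higher in STKO than WT by 2.20 ± 0.28 (adjusted p = 0.00143). This held on all 3 treatments: under DMSO Col1a2 read 10.97 in WT and 10.88 in SKO, against 12.12 in TKO and 12.57 in STKO. Over both backgrounds the Trex1-deficient arrays were higher by 1.32 ± 0.19 (adjusted p = 0.00633), where 2.35% of all probes and 2 members (Col1a2 and Col2a1) were called, while its partner chain Col1a1 was not called (-0.69 ± 0.21, adjusted p = 0.157). The difference between the type I chains was not tested, and Col3a1 also was not called (-0.94 ± 0.24, adjusted p = 0.0854). The Col1a2 calls in TKO minus WT and over both backgrounds were lost without the 24 h arrays and without the 48 h arrays. In STKO minus WT the Col1a2 call was lost without the 24 h arrays.

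Col2a1, the collagen of cartilage, was detected in TKO alone. It read 4.64, 8.25, 5.37 and 4.99 under DMSO, 4.71, 7.23, 5.12 and 5.08 at 24 h, and 4.58, 6.04, 5.05 and 4.79 at 48 h. TKO was the high genotype under each treatment, by 2.53 ± 0.34 over WT (at least 2.84-fold), and STKO minus TKO was -2.22 ± 0.34 (at least 2.61-fold lower). Col2a1 passed the filter through the 3 TKO arrays alone, so it had to differ, and its calls are a description. The macrophage marker sum, which was lowest in TKO, moved with this genotype too, and its part in the TKO differences was not tested. Another Col2a1 probe was called in TKO minus WT (1.71, at least 1.94-fold), and one was not (1.19). In STKO minus TKO the former was called as well (-1.52), and the latter was not (-0.82). Of 8 cartilage markers Acan, Matn1, Matn3, Comp, Cnmd and Hapln1 did not pass the filter. The summed signal of the other 2, Sox9 and Matn4, was 2440 to 2977 in TKO and 2707 to 3114 in WT, and the part of cartilage cells in the Col2a1 level was not tested.

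SKO minus WT called 8 members, 7 of them higher, where 6.54% of all probes were called (2.84% higher and 3.7% lower). Col6a2 was higher by 0.70 under DMSO, 1.32 at 24 h and 1.61 at 48 h, with a mean of 1.21 ± 0.22 (adjusted p = 0.00935), though another Col6a2 probe was not called (0.48). Col4a1 was higher by 0.37, 1.61 and 1.32 (mean 1.10 ± 0.21, adjusted p = 0.0133), and Col4a2 by 0.38, 1.47 and 1.09 (mean 0.98 ± 0.20, adjusted p = 0.0157). Col5a1 (0.83 ± 0.19), Col6a1 (0.83 ± 0.18), Col8a1 (0.97 ± 0.21) and the dim Col5a3 (0.74 ± 0.15, at least 1.31-fold) were the others that were higher. For Col24a1 and Col5a2 the brightest probe was not called, while another probe was called higher (1.14 and 1.51). Without the DMSO arrays 12 members were called, without the 24 h arrays 0 and without the 48 h arrays 1. Over both Trex1 backgrounds the arrays without STING were higher for 8 members and lower for 0, where 9.74% of all probes were called (4.72% higher and 5.02% lower): Col4a1 (0.88 ± 0.15, adjusted p = 0.0052), Col4a2, Col5a1, Col1a2, Col5a3, Col6a2, Col8a1 and Col6a1. Under DMSO Col1a2 read 10.97 and 12.12 with STING and 10.88 and 12.57 without. Each of the 8 calls was lost without the 24 h arrays and without the 48 h arrays. Another Col6a2 probe was not called over both backgrounds (0.34), and another Col24a1 probe was called higher (0.70). In the same comparison 8 of 10 macrophage markers were called higher and 0 lower (median 0.93), and of 11 fibroblast markers 3 were called higher and 2 lower (median 0.32). In SKO minus WT 0 macrophage markers were higher and 2 lower, and 1 fibroblast marker was higher and 1 lower. The part of the cell mix in these differences was not tested.

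Col9a3, a chain of fibril-associated type IX collagen, was lower than WT in all 3 knockout genotypes, at -1.0 ± 0.19 in TKO (adjusted p = 0.0117), -0.82 ± 0.19 in SKO (adjusted p = 0.0319) and -0.79 ± 0.19 in STKO (adjusted p = 0.0442). These comparisons share the WT arrays, and each call was lost when any treatment was left out. STKO minus WT called 2 members (Col1a2 and Col9a3), where 4.68% of all probes were called. STKO minus TKO called 1, Col2a1, where 4.85% were. STKO minus SKO called 0 members by limma, with 7 at an unadjusted p under 0.05, where 0.185% of all probes were called, and Col1a2 was at 1.38 ± 0.28 (adjusted p = 0.15).

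**Figure D4:**
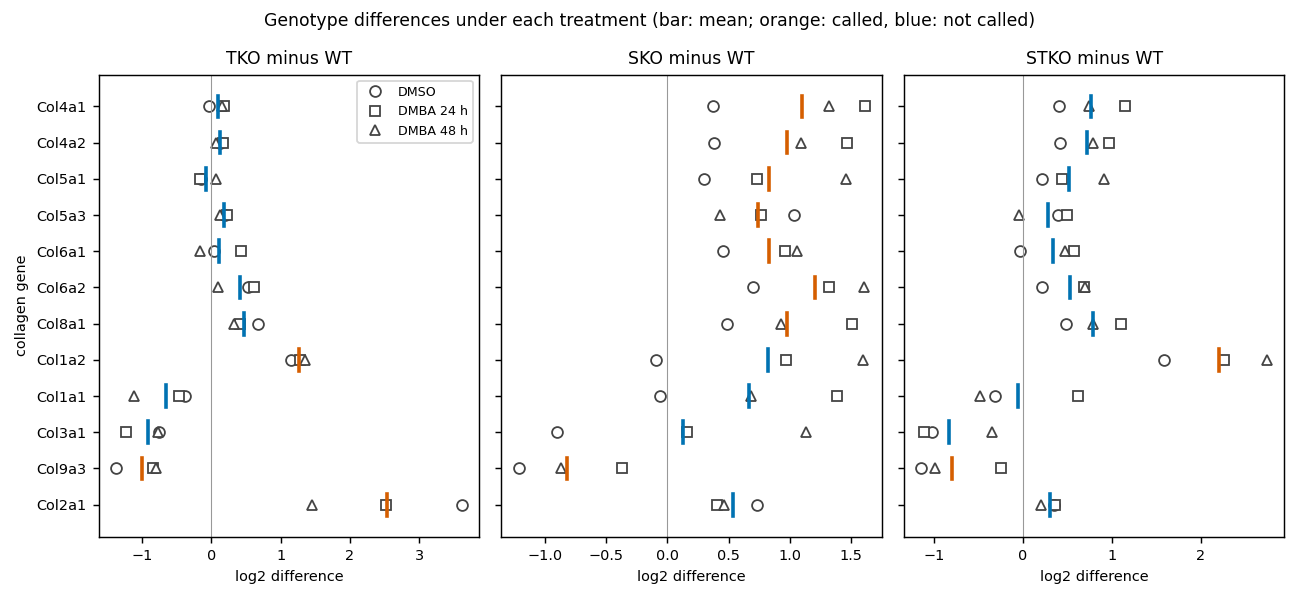
Log2 difference of each knockout genotype from WT under DMSO (circles), DMBA 24 h (squares) and DMBA 48 h (triangles) for 12 collagen genes, with the mean as a bar (orange where called). Col1a2 is to the right of 0 on all treatments in TKO and STKO, Col2a1 in TKO is the largest difference, and Col4a1, Col4a2, Col6a2 and Col8a1 in SKO lie nearer to 0 under DMSO than after DMBA.

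The genes that modify, process and bind collagen were taken as 53 genes in 4 lists, of which 43 were tested. At 48 h 23 of these fell and 2 rose, where 39.6% of all probes were called (19.1% higher and 20.4% lower). At 24 h 6 fell and 2 rose, a share near the 15.6% of all probes. Of 20 tested genes for modification and folding 11 fell at 48 h and 0 rose (median -0.44). P3h1, a prolyl 3-hydroxylase, fell by 1.02 ± 0.11 (adjusted p = 0.000165). P4ha3 and P4ha2, catalytic subunits of prolyl 4-hydroxylase, were at -1.02 ± 0.14 and -1.16 ± 0.20, and the collagen galactosyltransferase Colgalt1 at -0.76 ± 0.12, all called. Serpinh1, the collagen chaperone HSP47, read 15.16, 15.18, 15.09 and 15.07 under DMSO and 14.36, 14.50, 14.78 and 14.45 at 48 h. All 4 arrays of Serpinh1 were lower at 48 h, and it fell by 0.60 ± 0.12 (adjusted p = 0.00301).

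Of 7 tested processing and crosslinking genes 3 fell and 1 rose at 48 h, beside 20.4% of all probes lower and 19.1% higher. Pcolce2, an enhancer of procollagen C-proteinase, fell by 0.81 ± 0.15. Loxl1, which like Lox crosslinks collagen and elastin, fell by 0.52 ± 0.12, Lox fell by 0.33 ± 0.11, and Loxl4 rose by 0.68 ± 0.15. Of 6 receptor and uptake genes 4 fell and 1 rose, beside the same shares. Itga11 is the alpha subunit of a fibrillar collagen receptor of fibroblasts. It read 12.14, 11.96, 12.66 and 12.18 under DMSO, 8.73, 9.16, 12.01 and 10.91 at 24 h, and 6.56, 7.11, 11.70 and 10.38 at 48 h. It was lower in every genotype and lowest in WT and TKO. The difference at 48 h was -3.30 ± 0.63 (adjusted p = 0.00289), and its STING interaction was -2.98 ± 0.29 (adjusted p = 0.0125). Itga1 fell by 1.39 ± 0.16 (at least 1.79-fold) and Ddr2, a collagen-binding receptor kinase, fell by 0.83 ± 0.21, while the related Ddr1 rose by 0.57 ± 0.11.

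TGF-beta is the main inducer of collagen transcription in fibroblasts, and of 10 tested genes of its ligands, receptors and targets 5 fell at 48 h and 0 rose, a total near the 39.6% of all probes called at that time. Tgfbi, a matrix protein named for its induction by TGF-beta, read 12.36, 11.68, 11.00 and 10.73 under DMSO, 10.16, 9.64, 9.92 and 9.23 at 24 h, and 7.49, 7.54, 8.83 and 7.29 at 48 h. The groups did not overlap, and Tgfbi fell by 1.70 ± 0.33 at 24 h and fell by 3.65 ± 0.33 at 48 h (adjusted p = 8.9e-05). The ligand Tgfb3 fell by 1.06 ± 0.13 and the target Ccn2 fell by 1.00 ± 0.24. Ccn2 read 13.45, 13.85, 14.52 and 14.75 under DMSO and 13.41, 13.15, 12.92 and 13.09 at 48 h. WT was nearly level, and the largest falls were in SKO and STKO, which were the highest under DMSO. Ccn2 had a STING interaction of 0.86 ± 0.20 (adjusted p = 0.0484), opposite in sign to that of Itga11, and no other pathway gene was called there. In SKO minus WT Pcolce2 (1.88 ± 0.17), Itga11 (2.98 ± 0.73), Ltbp1 (1.47 ± 0.21), a binding protein of latent TGF-beta, and Tgfb3 (0.77 ± 0.15) were called, all higher in SKO. These were 4 of 43 tested pathway genes, where 6.54% of all probes were called (2.84% higher and 3.7% lower). STKO minus WT also called 4 pathway genes higher (4.68% of all probes called), and TKO minus WT 2 (5.21%). Under DMSO Itga11 read 12.14 in WT and 12.66 in SKO, against 6.56 and 11.70 at 48 h.

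**Figure D5:**
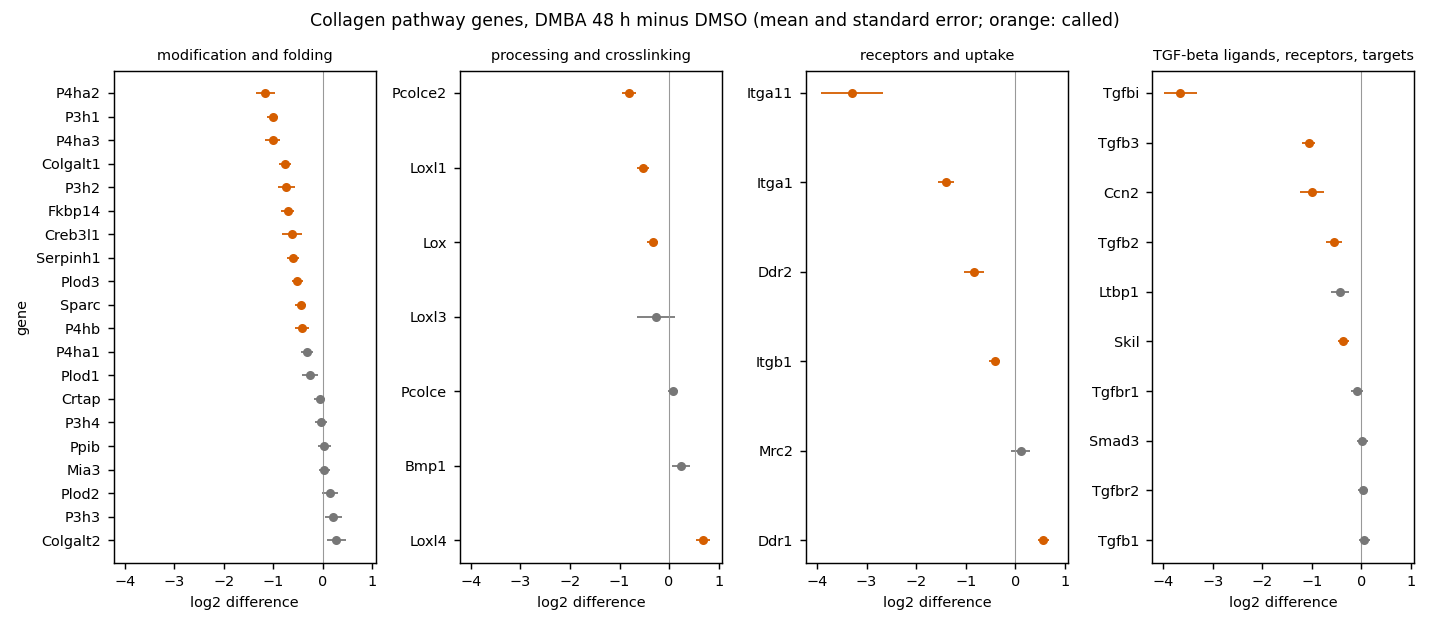
Mean log2 difference between DMBA 48 h and DMSO (horizontal axis, bars are limma's standard error) for the 43 tested collagen pathway genes in 4 lists, orange where called. Tgfbi and Itga11 lie farthest to the left, and Loxl4 and Ddr1 are the called genes to the right of 0.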

How the data were processed

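Transcripts were measured on 12 Illumina MouseWG-6 bead arrays, 1 per genotype and treatment. Per the labels' protocols, RNA was extracted with RNeasy and biotin-labelled cRNA was made with an Ambion MessageAmp kit. The deposited signals are linear intensity values that had not been normalized. The deposited detection column is a score that ran against its header (Spearman correlation with the signal 0.98 to 0.99) so that 1 minus it served as the detection p. The authors' value table holds log2 values: it matched quantile-normalized log2 signals without background correction, centred on each probe's median, with a largest difference of 0.00125. Its column medians were -0.00312 to 0.00162. The sources used here name neither scanner nor software.

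Signals were background-corrected with an offset of 16 and quantile-normalized on the log2 scale (neqc, limma 3.58.1, R 4.3.3). The 18389 of 45281 probes detected on at least 2 arrays were tested. Treatments and genotypes were compared with lmFit and eBayes in an additive model (6 residual degrees of freedom), and STING or Trex1 dependence as an interaction with treatment (4 residual degrees of freedom). P-values are 2-sided with Benjamini-Hochberg adjustment over all tested probes. The procedure was tested on simulated data. The platform annotation gave 1 symbol for 34885 probes and several for 18, and probes with several were not named. RefSeq tables (GRCm38.p6) gave gene lengths, neighbours and upstream windows, which were searched with Python 3.11.15.

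The members, the gene lists and the classes were chosen with earlier results of these data known. Every member is named, values per array are given for members called in a treatment or genotype comparison, and up to 4 called genes per pathway list and comparison with the smallest p. Other probes of a gene are given for part of the results where their direction or call differs, so a probe that is not mentioned need not agree. The number of arrays limits the precision. Alternatives changed the background correction, scaling, detection filter, probe choice, variance trend and arrays used.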

Additional observations from a re-analysis of the deposited data

Results flagged for a closer look

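In groups of 4 genotypes, 78 differences between treatments (26 members, 3 contrasts) were examined for 1 genotype lying far from the others. Of these 2 stood apart, a smaller share than the about 1 in 20 that chance gives. The Col2a1 difference between 48 h and DMSO was -2.21 in TKO, against -0.32 to -0.05 in the other genotypes, which did not detect this gene. The Col11a1 difference between 48 h and 24 h was -0.49 in TKO, against -0.07 to -0.01 in the others, all at levels that were not detected.

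For 8 members the DMBA difference with STING (WT and TKO) and without (SKO and STKO) was unequal by the interaction test. The value was -1.06 for Col1a2, -1.56 for Col24a1, -1.5 for Col5a2, -0.87 for Col4a5, -0.74 for Col8a1 and -2.75 for Col8a2. It was 1.59 for Col7a1 and 1.19 for Col9a2, which passed the detection filter only through WT and TKO at 48 h.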

How the results depend on the processing

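Of 674 recalculations of the 64 called member results, 490 kept direction and call, 184 kept the direction without the call and 0 reversed. Treatments were compared within genotypes as blocks throughout, and the labels give no replicate numbers for a further pairing. Chip as a block was not run, since the headers name none. The 24 h member count of 10 was 4 with no detection filter and 5 among probes detected on all 12 arrays, and the 48 h count of 18 was 10 among the latter. The 48 h against 24 h count of 4 was 2 and the SKO minus WT count of 8 was 4 with no filter. The STKO minus WT count of 2 was 4 with the authors' deposited value table, 1 with median scaling, 1 with no filter and 5 with an intensity trend. The STKO minus TKO count of 1 was 0 among probes detected on all arrays. The STING interaction count of 8 was 13 with the authors' deposited value table, 13 with an offset of 50, 2 with no filter and 17 with the trend. Its fibrillar median of -0.65 was -1.04 over members detected on all arrays. The median of the other classes, -0.40, was -0.33 with the authors' deposited value table, -0.35 with an offset of 50, -0.45 with median scaling and -0.29 over members detected on all arrays. The pathway count at 24 h, 8, was 13 with the authors' deposited value table, with an offset of 50 and with the trend, and the pathway interaction count of 2 was 1 with no filter. With no filter more probes were adjusted for and with all-array detection fewer were tested. For the other changes the cause was not tested. Leaving out 1 genotype or treatment gave counts of 1 to 16 at 24 h, 0 to 3 for 48 h against 24 h and 0 to 6 for the STING interaction (0 without SKO, 6 without STKO). It gave 0 to 2 for TKO minus WT, 0 to 12 for SKO minus WT, 0 to 5 for STKO minus WT and 0 to 5 for STKO minus TKO. The interaction medians ran from -0.98 to -0.52 (fibrillar), -0.93 to -0.46 (basement membrane) and -0.56 to -0.24 (other). Pathway counts ran from 0 to 10 at 24 h, 0 to 1 for the interaction and 2 to 5 for SKO minus WT. These fits had fewer arrays, and those that left a genotype out of an interaction were chosen after seeing the data.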
